A study of Mus musculus with 76 samples.

Results

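Extraembryonic ectoderm (ExE) dissected on embryonic day 6.5 was compared with mouse blastocysts within 1 genotype, the maternal knockout (matKO) of Ezhip. Ezhip encodes an inhibitor of PRC2, the Polycomb complex that places the repressive histone mark H3K27me3. The comparison took 8 libraries of matKO ExE (5 female, 3 male) and 8 libraries of matKO blastocysts (4 female, 4 male), 16 of the 76 libraries of the series. They were chosen by label, as the matKO libraries of these stages whose identifiers start with D707T. All 16 therefore share the knockout in the mother and the prefix. Each library is polyadenylated RNA of a single embryo or piece of tissue. A whole blastocyst holds inner cell mass and trophectoderm together, whereas the ExE is a dissected tissue, so a stage difference is also a difference in the cells sampled. The sources used here do not give the allele, litter, culture or embryo donor. Each p-value thus rests on how single libraries vary, and part of that variation may be technical.

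The trophectoderm is the outer epithelium of the blastocyst, and its polar part, next to the inner cell mass, grows after implantation into the ExE and the ectoplacental cone. The ExE keeps trophoblast stem cells under factors such as Elf5, Eomes and Esrrb and signals to the epiblast through Bmp4. Genes imprinted through maternal H3K27me3, such as Sfmbt2 and Gab1, keep allelic expression mainly in extraembryonic tissue, where the paternal X chromosome is also preferentially silenced in females.

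Total counts per library were 2736211 to 26674539 in matKO ExE and 4061206 to 14190048 in matKO blastocysts. ExE libraries had counts for 14601 to 18629 genes and blastocysts for 11584 to 14208. Summed counts of 4 Y-linked genes were at most 2 in libraries labelled female at either stage, 246 to 1771 in ExE males and 208 to 1238 in blastocyst males, so no library went against its labelled sex. Ezhip itself, listed as AU022751, fell under the count filter. Its level in CPM, the TMM-scaled count relative to the library total, was 0 to 0.779 CPM (median 0) in ExE and 0 to 1.71 CPM (median 0.156) in blastocysts. In a joint fit with WT libraries its means were 0.362 CPM in WT ExE and 16.8 CPM in WT blastocysts, both from other embryos of the series. Which part of the gene was deleted is not given, so these counts are no check of the genotype. The knockout is maternal, and the embryos' own allele was not typed here.

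Stage separated the libraries along the first principal component, which held 63.8% of the variance. Of 12660 genes tested by edgeR's quasi-likelihood test with sex as a term, 7188 (56.8%) passed a Benjamini-Hochberg adjusted p of 0.05. In matKO ExE 4249 genes (33.6%) were higher and 2939 (23.2%) lower than in matKO blastocysts. Differences of at least 4-fold were called for 2691 genes higher (21.3%) and 1308 genes lower (10.3%). For 2021 genes (16%) every ExE library lay above every blastocyst, and for 1234 (9.75%) every ExE library lay below. These shares are the background for the counts of the gene lists. The median log2 fold change over all genes was 0.27. Fold changes are log2, ExE over blastocyst, with their standard error (SE), and levels are the TMM-scaled CPM.

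**Figure D1:**
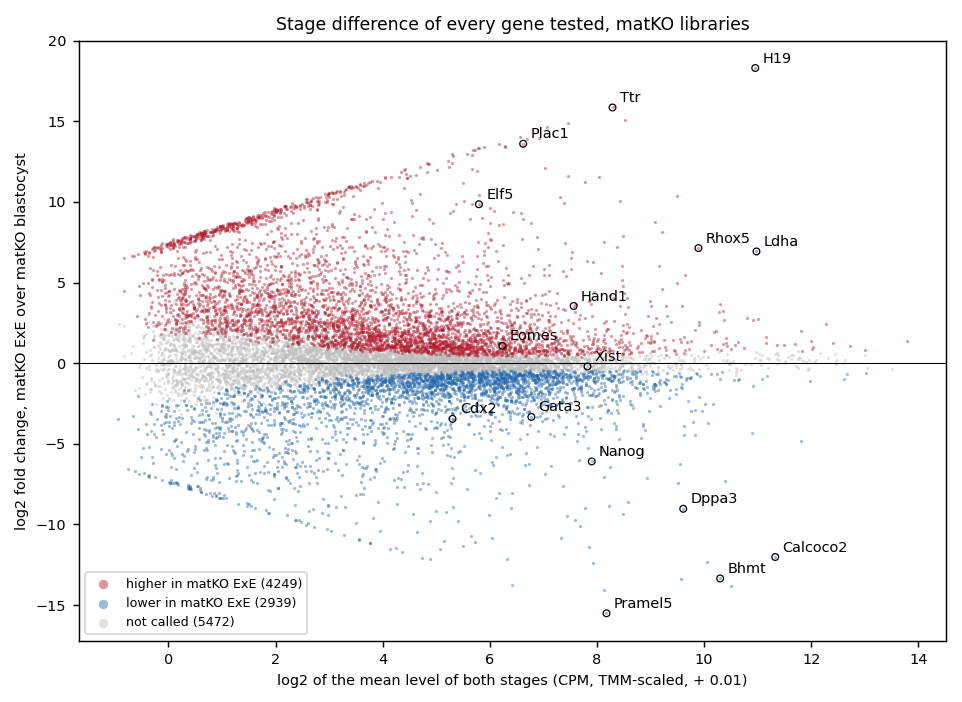
Log2 fold change, matKO ExE over matKO blastocyst, of each of the 12660 genes tested (y axis) against its mean level at both stages on a log2 scale (x axis). Red points are the 4249 genes higher in ExE, blue points the 2939 genes lower in ExE and grey points genes that were not called, and for genes with no count at 1 stage the fitted fold is no measured size.

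The 12 largest fitted rises among well-expressed genes included several with no count in any matKO blastocyst. H19, an imprinted noncoding RNA, ran from 916 to 8840 CPM (median 3610) in matKO ExE and was at 0 in all 8 matKO blastocysts, at least 91900-fold higher against a floor of 3 counts over the blastocyst group. Ttr, the thyroxine carrier secreted by visceral endoderm, ran from 147 to 1520 CPM (median 606) in ExE and was at least 15700-fold higher in the same way. All 8 ExE libraries held both transcripts and no blastocyst held either. Podxl, a sialomucin of the cell surface, Clic6, a chloride channel protein, and Nrk, an X-linked kinase of the placenta, were also at 0 in blastocysts. Their means in ExE were 352, 269 and 188 CPM, at least 7440-fold, 6270-fold and 4500-fold higher. The other 7 genes were Spink1, Ctla2a, Prl8a2, Plac1, S100a1, Prl3d2 and Prl3d1. Prl3d1 and Prl3d2 are near-identical copies of placental lactogen, and how their reads were split is uncertain.

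The 12 largest fitted falls held genes expressed strongly in blastocysts and close to 0 in ExE. Calcoco2, an autophagy receptor, had 0.257 to 3.93 CPM (median 0.415) in matKO ExE and 4420 to 6640 CPM (median 4770) in matKO blastocysts. Khdc3, a subunit of the subcortical maternal complex, had 0 to 0.433 CPM (median 0.0735) in ExE and 973 to 2130 CPM (median 1520) in blastocysts. Alppl2, an alkaline phosphatase of the early embryo, had 0 to 1.35 CPM (median 0.0387) in ExE and 1250 to 8820 CPM (median 1990) in blastocysts. The stages lay far apart for these 3 genes, with log2 fold changes of -12.02 ± 0.68, -13.38 ± 0.55 and -13.84 ± 0.86 (SE, adjusted p 1.2e-10, 2.1e-12 and 3e-10, edgeR). Bhmt, which remethylates homocysteine with betaine, fell by 13.35 ± 0.66, with means of 0.223 CPM in ExE and 2520 CPM in blastocysts. Pramel5 had no count in ExE and a mean of 579 CPM in blastocysts, at least 19600-fold lower. Pramel6, of the same Prame-like family, had means of 0.101 CPM in ExE and 484 CPM in blastocysts, and reads of this multicopy family may be shared between copies. Cbr2, Shc3, Pik3r6, Trim43a, Mybpc2 and Spi1 completed the 12.

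Promoter windows are shown for genes that separate the stages in either direction. These RefSeq windows on GRCm38.p6 run from 250 bases before to 50 bases after a transcript start, 5′ to 3′ on the gene's strand, with CpG dinucleotides in capitals. All 5 genes looked up were matched. Nanog had 2 windows, of which only the first by position is shown. Across all 32851 windows the median was 7 CpG, and 94.6% held at least 1.
Elf5 upstream start, chr2:103411848-103412147, plus strand, 3 CpG: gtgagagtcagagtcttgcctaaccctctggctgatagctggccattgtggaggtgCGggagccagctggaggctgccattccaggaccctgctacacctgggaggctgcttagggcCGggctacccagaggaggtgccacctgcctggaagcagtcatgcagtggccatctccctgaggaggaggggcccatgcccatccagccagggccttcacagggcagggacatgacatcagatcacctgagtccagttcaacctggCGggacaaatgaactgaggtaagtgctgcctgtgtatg
Elf5 downstream start, chr2:103423818-103424117, plus strand, 10 CpG: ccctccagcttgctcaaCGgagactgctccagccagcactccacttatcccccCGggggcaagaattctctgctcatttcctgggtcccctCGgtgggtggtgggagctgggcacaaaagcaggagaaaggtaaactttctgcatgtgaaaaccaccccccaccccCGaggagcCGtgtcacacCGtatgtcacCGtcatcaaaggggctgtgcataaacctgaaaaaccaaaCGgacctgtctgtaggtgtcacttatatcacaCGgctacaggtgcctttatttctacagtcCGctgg
Ascl2, chr7:142969215-142969514, minus strand, 23 CpG: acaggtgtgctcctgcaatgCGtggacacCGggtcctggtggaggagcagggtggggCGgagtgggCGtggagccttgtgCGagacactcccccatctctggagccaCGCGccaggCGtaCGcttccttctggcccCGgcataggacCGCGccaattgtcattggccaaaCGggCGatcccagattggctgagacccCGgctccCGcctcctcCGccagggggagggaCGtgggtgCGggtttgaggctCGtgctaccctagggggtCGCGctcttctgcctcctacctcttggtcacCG
Nanog, chr6:122707239-122707538, plus strand, 4 CpG: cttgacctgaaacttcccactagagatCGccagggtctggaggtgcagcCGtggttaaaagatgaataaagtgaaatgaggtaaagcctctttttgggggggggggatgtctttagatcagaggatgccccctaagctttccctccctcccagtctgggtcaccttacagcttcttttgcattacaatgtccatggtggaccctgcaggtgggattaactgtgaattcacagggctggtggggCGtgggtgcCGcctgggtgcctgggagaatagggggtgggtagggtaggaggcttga
Khdc3, chr9:73102148-73102447, plus strand, 0 CpG: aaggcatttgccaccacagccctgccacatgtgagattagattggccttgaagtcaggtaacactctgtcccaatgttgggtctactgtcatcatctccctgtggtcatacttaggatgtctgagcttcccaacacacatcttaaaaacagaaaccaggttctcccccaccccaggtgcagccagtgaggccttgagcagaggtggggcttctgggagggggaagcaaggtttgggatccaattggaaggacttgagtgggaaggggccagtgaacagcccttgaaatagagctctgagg
Pramel6, chr2:87506315-87506614, plus strand, 3 CpG: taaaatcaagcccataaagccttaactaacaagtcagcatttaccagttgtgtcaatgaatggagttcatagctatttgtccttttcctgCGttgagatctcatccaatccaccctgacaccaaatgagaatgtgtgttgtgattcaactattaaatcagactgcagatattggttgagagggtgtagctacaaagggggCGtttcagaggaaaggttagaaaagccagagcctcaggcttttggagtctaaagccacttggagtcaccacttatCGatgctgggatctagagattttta
The Ascl2 window held the most CpG of the 6, and 80% of all windows held as many or fewer. The Khdc3 window was among the 5.43% with none. Methylation was not measured in these libraries.

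Of 28 tested regulators of trophoblast stem cells and ExE, 14 were higher in matKO ExE, 6 were lower and 8 were not called (median log2 fold change 0.5). Elf5, an ETS factor that maintains trophoblast stem cells, had 87.2, 102, 165, 184 and 84 CPM in ExE females and 22.1, 178 and 62.5 CPM in ExE males, against 0, 0, 0 and 0.796 CPM in blastocyst females and 0, 0, 0 and 0 CPM in blastocyst males. It was present in all 8 ExE libraries and in 1 blastocyst, and the stages did not overlap, with a rise of 9.86 ± 0.72 (SE, adjusted p 2.2e-09, edgeR). Gata2, a GATA factor of trophoblast, had 9 to 168 CPM (median 44.3) in matKO ExE and 0 to 0.683 CPM (median 0) in matKO blastocysts. Ets2, an ETS factor needed for trophoblast growth, had 80 to 416 CPM (median 175) in ExE and 0 to 1.38 CPM (median 0.054) in blastocysts. Both rose without overlap, by 8.93 ± 0.76 and 8.95 ± 0.71. Bmp4, the ExE signal to the epiblast, rose by 7.41 ± 1.18 (adjusted p 3e-05). Its ExE level was uneven, at 125 CPM in female 3, 63.6 CPM in male 2 and at most 16.8 CPM in the other 6 libraries.

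Cdx2, Gata3, Tead4 and Klf5 were among the 6 of these regulators that were lower in ExE. Cdx2, the homeobox factor of trophectoderm, had 2.11 to 19.2 CPM (median 3.32) in matKO ExE and 26 to 162 CPM (median 72.1) in matKO blastocysts. Gata3, a GATA factor that acts beside it, had 2.01 to 51.6 CPM (median 17.4) in ExE and 116 to 262 CPM (median 202) in blastocysts. Every ExE library lay below every blastocyst for both, and they fell, with log2 fold changes of -3.45 ± 0.54 and -3.33 ± 0.41 (SE, adjusted p 2.7e-05 and 1.7e-06, edgeR). Tead4, which acts upstream of Cdx2, and Klf5, a Krüppel-like factor of trophectoderm and inner cell mass, fell without overlap, with log2 fold changes of -2.66 ± 0.18 and -2.48 ± 0.24.

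Eomes, the T-box factor of trophoblast stem cells, had 61.1, 26, 243, 51.6 and 52.4 CPM in ExE females and 27.1, 262 and 88.9 CPM in ExE males, against 43.2, 50.4, 39 and 60.9 CPM in blastocyst females and 18.9, 57.4, 65.3 and 52.1 CPM in blastocyst males. Female 3 and males 2 and 3 of ExE lay above every blastocyst and the other 5 ExE libraries within the blastocyst range, with a rise of 1.08 ± 0.44 (adjusted p 0.045, edgeR). The call was lost without any 1 of blastocyst females 4, 5 and 6 and males 4, 5 and 7, at 0.95 to 1.11. It was likewise lost without ExE female 3 (0.64, adjusted p 0.19) and without ExE male 2 (0.63, adjusted p 0.23). Against the 6 matKO blastocysts of the prefix D405T in place of D707T, the value was -1.54 (adjusted p 0.015). Esrrb (-0.85 ± 0.61, adjusted p 0.24) and Tfap2c (-0.52 ± 0.43, adjusted p 0.31), further factors of this network, were not called.

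**Figure D2:**
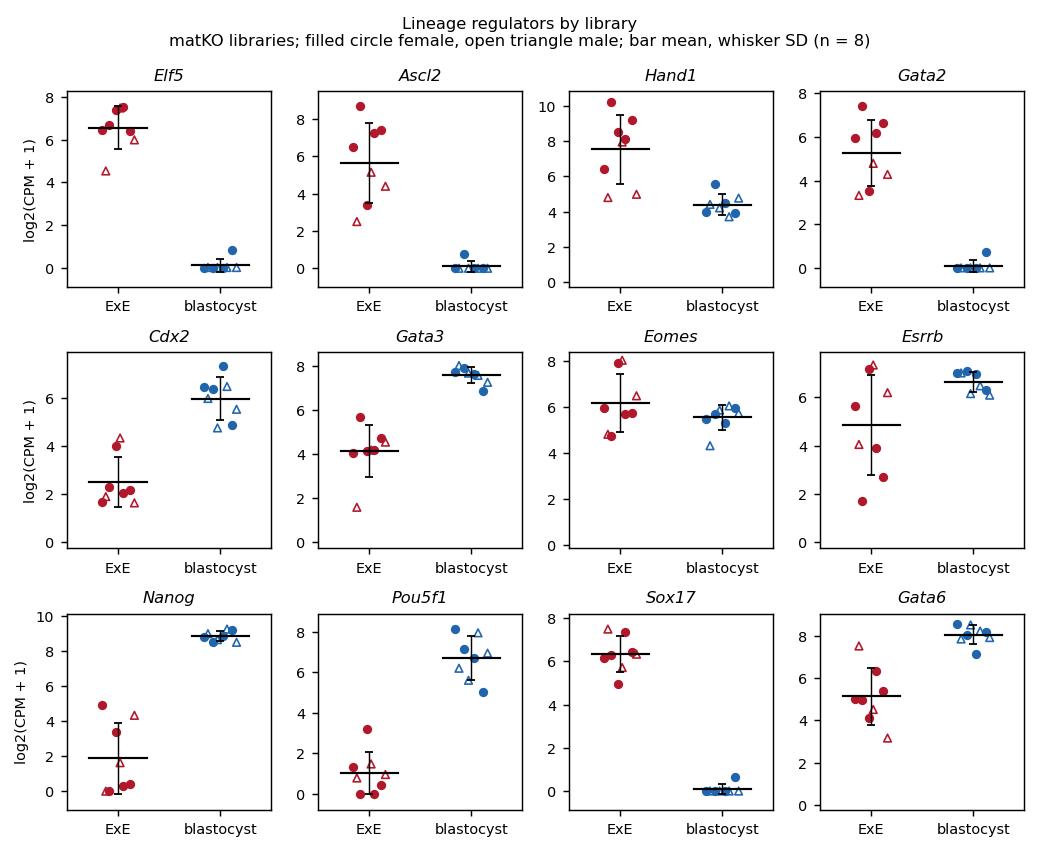
Level as log2(CPM + 1) of 12 lineage regulators in each matKO library, ExE left and blastocyst right, where circles are females, triangles males, the bar the mean and the whisker the SD (n = 8). Elf5, Ascl2, Gata2 and Sox17 were near 0 in blastocysts, Cdx2, Gata3, Nanog and Pou5f1 were lower in every ExE library than in every blastocyst, and Eomes overlapped.

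Epithelial and cavity genes of trophectoderm were higher in 10 of 29 tested, lower in 9 and not called in 10 (median 0.49), shares near those of all genes tested. Krt19, a keratin, and Aqp8, a water channel, rose by 9.3 ± 0.98 and 7.49 ± 0.86, with means of 192 and 109 CPM in ExE against 0.424 and 0.691 CPM in blastocysts. Aqp9, another water channel, fell by 9.21 ± 0.62, with means of 0.176 CPM in ExE and 72 CPM in blastocysts. Ptges, a prostaglandin E synthase, and Slc5a6, a vitamin transporter, fell, with log2 fold changes of -7.07 ± 0.61 and -4.49 ± 0.32, also without overlap. Krt18 rose by 1.4 ± 0.4 (adjusted p 0.0057), with 336 to 1890 CPM (median 673) in ExE and 133 to 491 CPM (median 279) in blastocysts. Its partner Krt8 was at 0.1 ± 0.45 (adjusted p 0.86), with 128 to 1420 CPM (median 355) in ExE and 221 to 841 CPM (median 463) in blastocysts. Against the D405T blastocysts these values were -0.62 for Krt18 (adjusted p 0.16) and -1.46 for Krt8 (adjusted p 0.012).

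Markers of mural trophectoderm, ectoplacental cone and giant cells were higher in 14 of 19 tested and lower in 3, and the other 18 of 37 listed had too few counts. In blastocysts 21 of the 37 had no count. Those of them that were tested passed the count filter through the ExE, so their direction was fixed in advance. The median was 7.21, or 6.86 with genes at 0 at 1 stage set to their bound. Ascl2, an imprinted bHLH factor of the ectoplacental cone, had 91.5, 409, 9.7, 153 and 167 CPM in ExE females and 4.68, 34.5 and 20.1 CPM in ExE males, against 3 counts in all in blastocysts. Every ExE library lay above every blastocyst, and the ratio of summed counts was 3350 (95% interval 1140 to 16200, counting error only). Hand1, the bHLH factor of giant cells, had 26.9 to 1210 CPM (median 265) in matKO ExE and 12.1 to 47.2 CPM (median 19) in matKO blastocysts. The stages overlapped, with a rise of 3.55 ± 0.62 (adjusted p 8.3e-05). Plac1, an X-linked placental membrane protein, ran from 1.87 to 855 CPM (median 104) in ExE and was at 0 in blastocysts, at least 6380-fold higher. Phlda2, an imprinted brake on placental growth, rose by 8.75 ± 1.06, with 152 to 4020 CPM (median 775) in ExE and 0 to 5.83 CPM (median 1.66) in blastocysts. ExE female 2 held the highest level of Ascl2, Hand1, Plac1, Phlda2 and Prl3d1. Prl3b1, placental lactogen II, ran against the list, with no count in ExE and 18.5 to 52.5 CPM (median 32.8) in blastocysts, at least 1140-fold lower.

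Genes of inner cell mass and naive pluripotency were lower in 15 of 23 tested and higher in 4 (median -2.68). Nanog had 29.5, 0, 9.52, 0.22 and 0.338 CPM in ExE females and 0, 2.09 and 19.2 CPM in ExE males, against 364 to 616 CPM (median 455) in matKO blastocysts. Pou5f1, which encodes Oct4, had 0 to 8.31 CPM (median 0.828) in ExE and 31.6 to 282 CPM (median 113) in blastocysts. Dppa3, a maternal factor that shields DNA from methylation, had 0.0735 to 12.8 CPM (median 0.886) in ExE and 1040 to 2130 CPM (median 1600) in blastocysts. No ExE library reached the lowest blastocyst for any of the 3, and they fell, with log2 fold changes of -6.09 ± 1.05, -6.34 ± 0.87 and -9.03 ± 0.93 (adjusted p 6.8e-05, 6.3e-06 and 1.8e-07, edgeR). In such bulk samples fewer cells of a type and less RNA per cell cannot be told apart. Tfcp2l1 and Nr5a2, factors of the naive state, fell, with log2 fold changes of -4.1 ± 0.25 and -7.09 ± 0.55. Zfp42 (Rex1) fell by 2 ± 0.26 and Dppa5a, an RNA-binding protein of pluripotent cells, fell by 2.68 ± 0.3, and Dppa5a still averaged 157 CPM in ExE against 1000 CPM in blastocysts. Il6st, the shared subunit gp130 of the LIF receptor, rose by 8.35 ± 0.77, with 17.8 to 52.6 CPM (median 34.4) in ExE and 0 to 0.756 CPM (median 0) in blastocysts. Lifr, its partner subunit, ran from 1.4 to 39.3 CPM (median 12.3) in ExE and was at 0 in blastocysts, at least 445-fold higher.

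Only 4 of the 25 listed 2-cell genes were tested, and all 4 were lower, each at least 4-fold. They passed the count filter through the blastocysts, so their direction was fixed in advance and does not speak for the untested genes. The listed genes summed to 0.154 to 31.4 CPM in ExE and 472 to 1100 CPM in blastocysts. Sp110, a nuclear body protein, and Obox6, an oocyte homeobox gene, fell, with log2 fold changes of -6.78 ± 1.03 and -6.22 ± 1.05, and both were highest within ExE in female 5 (13.3 and 3.21 CPM). Of 14 tested maternal oocyte transcripts, 7 were lower and 4 higher (median -1.63). Zar1, an oocyte RNA-binding protein, was among the higher ones, with means of 7 CPM in ExE and 0.447 CPM in blastocysts.

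Of 21 tested primitive endoderm genes 18 were higher and 1 lower (median 4.8), and of 19 tested markers of visceral and parietal endoderm 18 were higher and 1 lower (median 7.83, or 7.15 at the bound). Sox17, an endoderm factor, had 69.4, 78.4, 29.7, 163 and 84.5 CPM in ExE females and 180, 51.6 and 79.8 CPM in ExE males, against 0, 0, 0 and 0.569 CPM in blastocyst females and 0, 0, 0 and 0 CPM in blastocyst males. The stages did not overlap, and it rose by 10.08 ± 0.7 (adjusted p 1.3e-09, edgeR). Gata4 rose by 6 ± 0.77 and Cubn, the endocytic receptor of visceral endoderm, by 8.11 ± 0.84. Afp, alpha-fetoprotein, ran from 12.6 to 267 CPM (median 54.2) in ExE and was at 0 in blastocysts, at least 1980-fold higher. Gata6, the early factor of primitive endoderm, fell by 2.42 ± 0.47 (adjusted p 0.00026), with 7.96 to 184 CPM (median 31.1) in ExE and 143 to 377 CPM (median 278) in blastocysts. Hhex, a factor of anterior visceral endoderm, fell by 1.82 ± 0.45.

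Visceral endoderm wraps the ExE at this age, and its listed markers summed to 1880 to 16300 CPM in ExE and 142 to 485 CPM in blastocysts, where 10 of the 24 had no count. ExE male 1 was the highest library for Ttr, Afp, Cubn (4430 CPM) and Gata6 (184 CPM) and the lowest for Elf5 (22.1 CPM), Ascl2 (4.68 CPM) and Gata3 (2.01 CPM). The part of adhering endoderm in the stage differences was not tested.

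Markers of epiblast were higher in 10 of 11 tested and summed to 335 to 2470 CPM in ExE and 179 to 294 CPM in blastocysts. Otx2, a homeobox factor of the epiblast, had 36.2, 0, 35.9, 1.03 and 0 CPM in ExE females and 1.39, 1.47 and 60.6 CPM in ExE males, against 0.312 to 4.46 CPM (median 1.31) in blastocysts. Females 1 and 3 and male 3 of ExE were high, and the other 5 lay within the blastocyst range or below it. Without those 3 libraries Otx2 was at -1.15 (adjusted p 0.43), and 5 epiblast markers were higher in place of 10. Without female 3 alone the count was 6 and Otx2 was at 2.98 (adjusted p 0.051), and without male 3 alone Otx2 was at 1.79 (adjusted p 0.22). The same 3 libraries held the most Fgf5 (24.3, 25.4 and 50.5 CPM) and the most Nanog of the ExE libraries. Streak and mesoderm markers were higher in 6 of 7 tested, and in 3 without those libraries. This list held 18 genes, 10 of them with no count in blastocysts. Of the 7 tested, 2 had no count there, so their direction was fixed in advance. The part of epiblast cells in other results was not tested.

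Decidua and uterine stroma markers were higher in 12 of 13 tested (median 9.06, or 7.64 at the bound). They summed to 203 to 1160 CPM in ExE and 29.8 to 59 CPM in blastocysts, where 12 of the 23 listed had no count. Of the 13 tested, 6 had no count in any blastocyst. These 6 passed the count filter through the ExE, so their direction was fixed in advance. Col1a2, a collagen of stroma, had 0.307, 0.604, 0.26, 43.8 and 10.8 CPM in ExE females and 4.73, 2.25 and 3.28 CPM in ExE males and was at 0 in blastocysts. Female 4 and then female 5 stood highest. Prl8a2, a prolactin of decidua, ran from 22.8 to 822 CPM (median 139) in ExE, and Vim, the intermediate filament of mesenchyme, from 6.75 to 107 CPM (median 26.7), both with no count in blastocysts. The highest list sum, 1160 CPM in ExE female 2, held 822 CPM of Prl8a2, while Col1a2 was at 0.604 CPM there. The sum therefore did not follow Col1a2. Blood, endothelial and macrophage markers were higher in 6 of 9 tested, and 12 of the 23 listed had no count in blastocysts. They summed to 18.1 to 375 CPM in ExE and 16.4 to 54.5 CPM in blastocysts. Without ExE females 4 and 5 the count was 3. The highest sums, however, were in ExE female 1 (375 CPM) and ExE male 3 (346 CPM), and female 5 was at 53.7 CPM. The part of maternal tissue in other results was not tested.

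**Figure D3:**
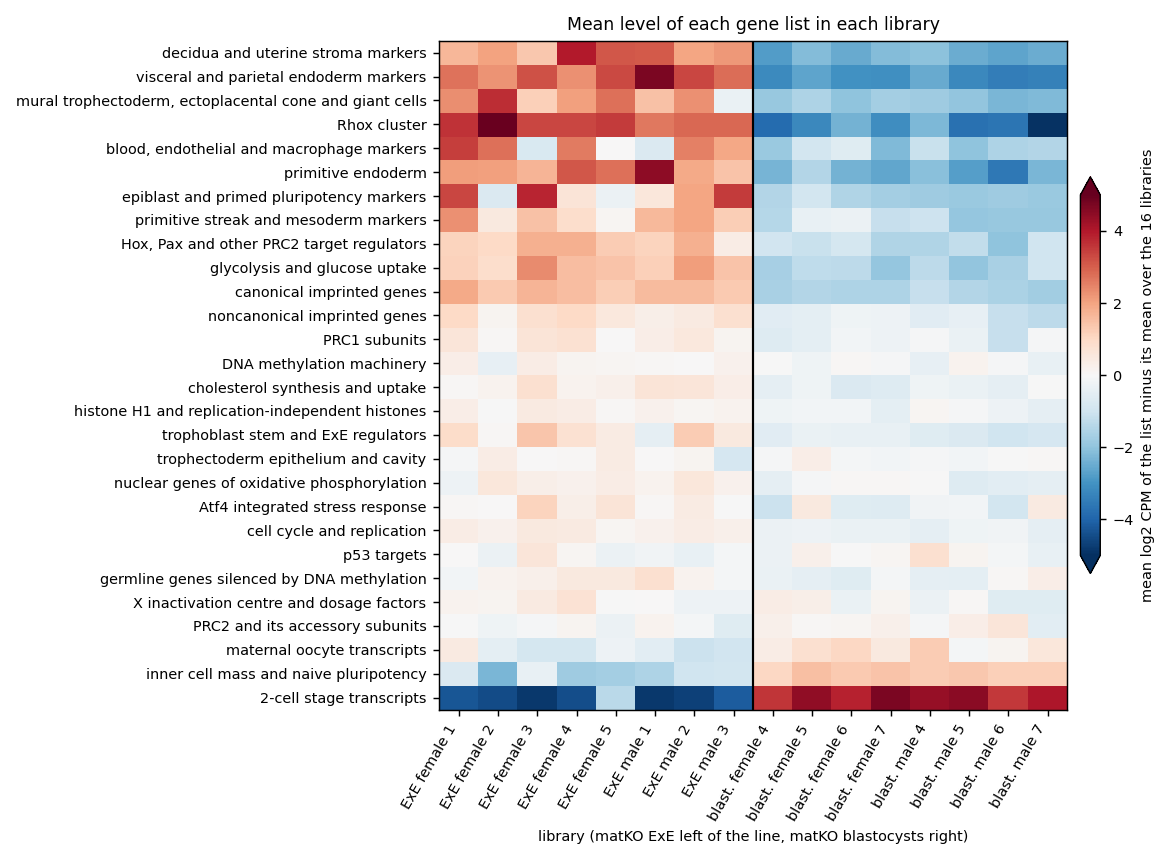
Mean log2 CPM of each of the 28 gene lists in each matKO library, relative to the list's mean over the 16 libraries, with ExE libraries left of the line and blastocysts right. Endoderm, decidua and glycolysis lists were higher in ExE, and inner cell mass and 2-cell lists (the latter with 4 tested genes) were lower in ExE.

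Imprinted genes bear on the study because the missing maternal protein limits H3K27me3. Of 8 tested genes imprinted through maternal H3K27me3, 5 were higher, none was lower and 3 were not called (median 1.14). Sfmbt2, a Polycomb-related gene needed in trophoblast, had 124, 163, 148, 206 and 148 CPM in ExE females and 157, 204 and 85.2 CPM in ExE males, against 1.67 to 10 CPM (median 4.37) in matKO blastocysts. It rose by 4.95 ± 0.38 (adjusted p 4.8e-09, edgeR) without overlap. Jade1, a subunit of a histone acetyltransferase, had 144 to 320 CPM (median 204) in ExE and 25.8 to 77.6 CPM (median 53.4) in blastocysts. Gab1, an adaptor of growth factor receptors, had 287 to 489 CPM (median 366) in ExE and 50.5 to 238 CPM (median 126) in blastocysts. Smoc1, a secreted calcium-binding protein, had 25.3 to 50 CPM (median 38.5) in ExE and 4.6 to 23.6 CPM (median 12.3) in blastocysts. None of the 3 overlapped between stages, with rises of 2.16 ± 0.23, 1.49 ± 0.26 and 1.59 ± 0.31. Slc38a4, an amino acid transporter, overlapped and rose by 0.78 ± 0.25 (adjusted p 0.011). Counts over both alleles cannot show whether a gene was imprinted here.

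Genes under canonical imprints, which rest on DNA methylation, were higher in 26 of 41 tested, 25 of them at least 4-fold, and lower in 3 (median 2.63). Igf2, a fetal growth factor next to H19, rose by 7.06 ± 0.92, with 99.5 to 407 CPM (median 266) in ExE and 0 to 8.27 CPM (median 0.18) in blastocysts. Cdkn1c, a growth inhibitor of the Kcnq1 domain, rose by 7.7 ± 0.74, with 36.8 to 334 CPM (median 98.7) in ExE and 0 to 1.56 CPM (median 0.349) in blastocysts. The noncoding RNA Meg3 and Grb10, an adaptor that restrains growth, rose by 8.07 ± 0.71 and 7.2 ± 0.75. Genes expressed mainly from the maternal allele (H19, Cdkn1c, Meg3) and from the paternal one (Igf2, Peg3) were both among those that rose without overlap, with 3.04 ± 0.34 for Peg3. Inpp5f, whose counts here do not separate its transcripts, also rose without overlap, by 3.32 ± 0.27. Snrpn, a splicing protein gene of the Prader-Willi region, fell by 2.53 ± 0.46 (adjusted p 0.00014), with 6.48 to 77.2 CPM (median 28.6) in ExE and 143 to 316 CPM (median 215) in blastocysts. Igf2r, a receptor that clears Igf2, was not called (0.59 ± 0.39, adjusted p 0.2), and its reads may overlap those of the antisense Airn.

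**Figure D4:**
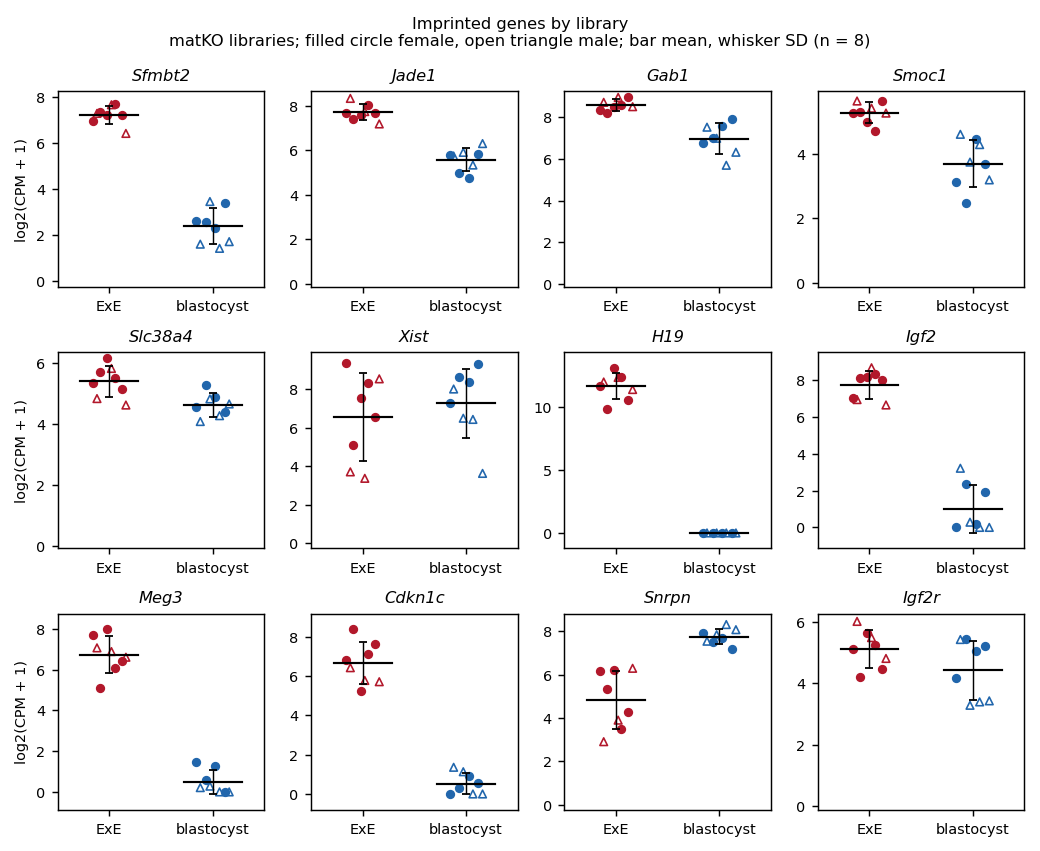
Level as log2(CPM + 1) of 12 imprinted genes in each matKO library, ExE left and blastocyst right, where circles are females, triangles males, the bar the mean and the whisker the SD (n = 8). Sfmbt2, Jade1, Gab1, Smoc1, H19, Igf2, Meg3 and Cdkn1c were higher in every ExE library than in every blastocyst, Snrpn was lower, and Slc38a4, Xist and Igf2r overlapped.

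Of 15 tested genes of PRC2 and its partners, 3 were higher and 6 lower (median -0.79). Ezh2, the catalytic subunit, was not called (0.09 ± 0.26, adjusted p 0.78), with 75.5 to 206 CPM (median 130) in matKO ExE and 72.6 to 257 CPM (median 123) in matKO blastocysts. Against the D405T blastocysts it was at -0.78 (adjusted p 0.0083). The core subunits Eed and Suz12 fell, with log2 fold changes of -1 ± 0.2 and -0.89 ± 0.29 (adjusted p 0.00024 and 0.013). Jarid2 and Mtf2, accessory subunits that guide PRC2 to its targets, fell without overlap, with log2 fold changes of -2.6 ± 0.24 and -2.35 ± 0.24. Jarid2 had 37 to 120 CPM (median 71.3) in ExE and 319 to 635 CPM (median 459) in blastocysts. Mtf2 had 33.2 to 53.1 CPM (median 43.2) in ExE and 110 to 378 CPM (median 234) in blastocysts. Phf19, a homologue of Mtf2, rose by 4.47 ± 0.78, with 5.51 to 15.4 CPM (median 8.91) in ExE and 0 to 1.56 CPM (median 0.3) in blastocysts. The count of 3 higher dropped to 1 without ExE male 1. Of 22 tested PRC1 genes 10 were higher and 5 lower (median 0.83). Cbx2, which reads H3K27me3, rose by 3.31 ± 0.77, and Kdm2b, which recruits PRC1 to CpG islands, fell by 3.27 ± 0.41.

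DNA methylation genes were higher in 9 of 20 tested and lower in 4 (median 0.66). Dnmt1, the maintenance enzyme, rose by 1.42 ± 0.2, with 123 to 224 CPM (median 174) in ExE and 40.7 to 98.9 CPM (median 59.4) in blastocysts. Dnmt3b, a de novo enzyme shared by epiblast and ExE, rose by 4.24 ± 0.58, highest in the ExE libraries with the most Otx2 (1470, 1130 and 880 CPM). Dnmt3l, a cofactor without catalytic activity, fell by 1.89 ± 0.24, and the dioxygenase gene Tet2 fell by 4.3 ± 0.37. Germline genes that DNA methylation silences in somatic cells were higher in 7 of 23 tested and lower in 7 (median -0.1), shares near those of all genes tested. Ddx4, of the germline piRNA pathway, rose by 7.07 ± 0.9, with means of 16.7 CPM in ExE and 0.114 CPM in blastocysts. Dpep3, a dipeptidase of testis, fell by 6.24 ± 0.62, and Tex19.1, active in placenta and germline, fell by 2.25 ± 0.29. Of 14 listed Rhox homeobox genes of the X chromosome only 3 were tested, and all 3 rose, while 10 of the 14 had no count in blastocysts. Rhox6 had a count in blastocyst male 5 only (1.19 CPM). It passed the count filter through the ExE, so its direction was fixed in advance. Rhox5 had 1010 to 3660 CPM (median 1430) in ExE and 0.54 to 38.3 CPM (median 8.07) in blastocysts, a rise of 7.14 ± 0.74, and Rhox6 rose by 9.46 ± 0.78. Of 10 tested Hox, Pax and other PRC2 target regulators 6 were higher and 2 lower (median 3.87, or 3.53 at the bound), among them Irx3, a homeobox factor, with a rise of 8.11 ± 0.79. This list held 38 genes, 15 of them with no count in blastocysts. Irx3 passed the count filter through the ExE, so its direction was fixed in advance.

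Glycolysis and glucose uptake genes were higher in 18 of 24 tested, 16 of them at least 4-fold, and lower in 1 (median 3.4). Slc2a1, the glucose transporter Glut1, had 669, 946, 815, 638 and 544 CPM in ExE females and 633, 835 and 461 CPM in ExE males, against 19.5 to 49.1 CPM (median 33) in matKO blastocysts. It rose by 4.38 ± 0.26 (adjusted p 1.5e-10), and the lowest ExE library was far above the highest blastocyst. Ldha, which makes lactate, rose by 6.93 ± 0.48, with 2150 to 6860 CPM (median 3460) in ExE and 8.1 to 60.7 CPM (median 35.4) in blastocysts. Pdk1, a kinase that inhibits pyruvate dehydrogenase, ran from 18.2 to 101 CPM (median 61.1) in ExE and was at 0 in blastocysts, at least 1240-fold higher. Hk2, a hexokinase at the entry of the pathway, was not called (0.09 ± 0.4, adjusted p 0.85), and Pfkfb4, a regulator of its flux, fell by 3.96 ± 0.66.

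Nuclear genes of oxidative phosphorylation were higher in 21 of 47 tested and lower in 8 (median 0.41), and 2 were at least 4-fold higher, with Cox7b, an X-linked subunit of cytochrome c oxidase, at 2.94 ± 0.29. Of 20 tested Atf4 stress response genes 7 were higher and 4 lower (median 0.32), shares near those of all genes tested. The serine and cysteine enzymes of this list, Phgdh, Psat1 and Cth, fell, with log2 fold changes of -2.8 ± 0.26, -1.88 ± 0.24 and -3.54 ± 0.26. Aldh18a1, of proline synthesis, rose by 5.14 ± 0.49. Cholesterol genes were higher in 11 of 24 and lower in 6 (median 0.66), among them Nsdhl, an X-linked enzyme, at 5.19 ± 0.66. Cell cycle genes were higher in 11 of 35 and lower in 7 (median 0.31), again shares near those of all genes tested. Mycn, a Myc family factor, rose by 6.74 ± 0.52, with 34.3 to 91.3 CPM (median 66.1) in ExE and 0 to 1.33 CPM (median 0.453) in blastocysts, whereas Cdc20 and Aurka, of mitotic exit and spindle assembly, fell, with log2 fold changes of -1.85 ± 0.21 and -1.23 ± 0.18. Of 19 tested p53 targets 3 were higher and 6 lower (median -0.06), among them Tigar, a brake on glycolysis, which fell by 3.25 ± 0.2. Of 10 tested histone genes 4 were higher and 3 lower (median 0.52).

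The X chromosome had the highest share of genes higher in matKO ExE, 243 of 437 tested (55.6%), against 50 lower (11.4%), and a median log2 fold change of 1.75. On the autosomes 26.9% to 38.8% of genes were higher and 18.8% to 27% lower, with medians between 0.08 and 0.49. For a test over libraries, the median log2 CPM of 436 X genes without Xist was set against that of 12218 autosomal genes. In females this difference was 0.01 ± 0.11 in ExE (SD, n = 5) and -1.59 ± 0.36 in blastocysts (SD, n = 4). In males it was -0.22 ± 0.2 in ExE (SD, n = 3) and -2.17 ± 0.56 in blastocysts (SD, n = 4). Every ExE library lay above every blastocyst in both sexes. The stage difference was 1.61 in females (exact two-sided permutation p 0.0159, adjusted 0.0318 over the 2 tests). In males it was 1.95 (exact p 0.0571, adjusted 0.0571), which did not pass. Both p-values were the smallest that these group sizes allow, so 3 against 4 males could not reach 0.05. With the D405T blastocysts added, the male difference was 1.44 (exact p 0.0167). Among the 225 X genes of at least 10 CPM the differences were 1.27 in females (exact p 0.0159) and 1.5 in males (exact p 0.0571). The level was also higher in WT ExE than in WT blastocysts, with values given below under the comparison of genotypes.

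Cited1, an X-linked coactivator of trophoblast, had 1370 to 3520 CPM (median 2170) in ExE and 115 to 454 CPM (median 236) in blastocysts and rose by 3.24 ± 0.3. Rlim, the X-linked activator of Xist, rose by 2.88 ± 0.54, with 114 to 201 CPM (median 164) in ExE and 5.2 to 82 CPM (median 9.13) in blastocysts. Xist, the RNA that coats the inactive X, had 655, 33.1, 189, 321 and 91.9 CPM in ExE females and 12.1, 9.38 and 371 CPM in ExE males, against 156, 394, 326 and 624 CPM in blastocyst females and 257, 89.2, 85.4 and 11.4 CPM in blastocyst males. The stages overlapped, and Xist was not called (-0.2 ± 0.7, adjusted p 0.82). ExE male 3 had Xist in the range of ExE females, with Y-linked counts in the male range (246 counts) and the lowest X to autosome difference of the 8 ExE libraries, -0.41. Among blastocysts, male 4 (257 CPM) likewise lay within the range of females, with 208 Y-linked counts. Reads of the antisense gene Tsix may be counted with Xist, since the strand setting is not given. Of 14 tested genes of the X inactivation centre and dosage factors, 3 were higher and none lower (median -0.2).

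**Figure D5:**
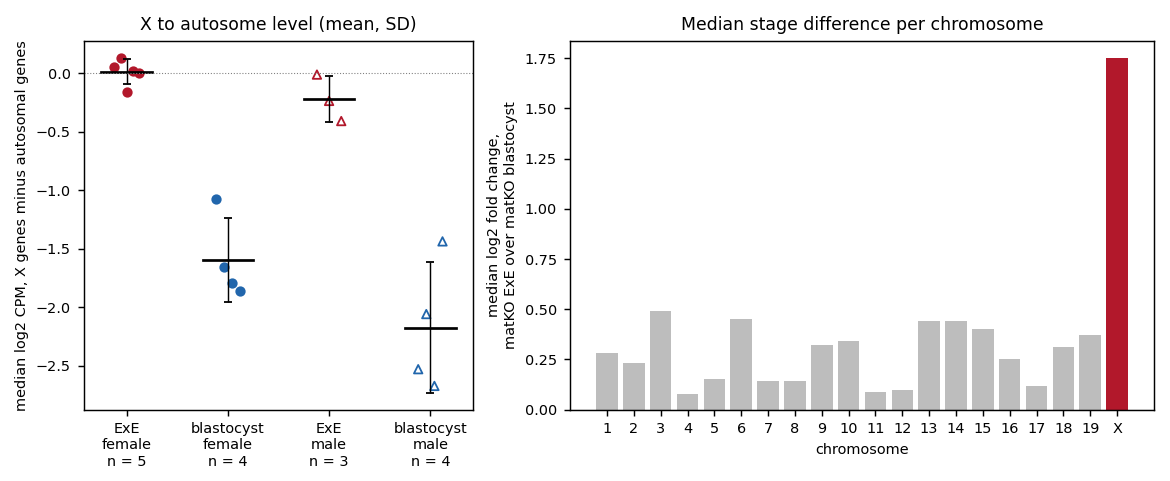
Left, median log2 CPM of X genes minus that of autosomal genes in each matKO library, by sex and stage, with mean and SD, where ExE libraries lie between -0.41 and 0.14 and blastocysts between -2.67 and -1.07. Right, median log2 fold change, matKO ExE over matKO blastocyst, of the tested genes of each chromosome, with the X at 1.75.

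The stage difference was also compared between the sexes and, in a joint fit, between genotypes. For the interaction of stage and sex, 0 of 12660 genes (0%) passed by edgeR's quasi-likelihood test, 720 had an unadjusted p under 0.05, DESeq2 called 20 and limma voom called 0. The joint fit added 10 WT ExE libraries of the prefix D1042C and 4 WT blastocysts of D707T, so genotype and prefix cannot be told apart in ExE. Of 14749 genes, 899 (6.1%) had a stage difference further up in matKO than in WT, and 327 (2.22%) further down. This split depended on the scaling: with library totals only 1082 genes were called, 613 of them further up, and with DESeq2 1623 were called, 989 of them further up. Of 8868 genes called for stage in matKO and 8469 called in WT, 6544 were called in both with the same direction, 73.8% of the matKO genes and 77.3% of the WT genes.

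Gata2 and Ets2 were among the genes whose stage difference differed by genotype. For Gata2 the log2 fold change was 8.93 in matKO and 1.96 in WT in the joint fit, which put the difference at 6.94 (adjusted p 0.00018, edgeR). Its means were 58.2 CPM in matKO ExE, 0.0853 CPM in matKO blastocysts, 39.2 CPM in WT ExE and 7.88 CPM in WT blastocysts. For Ets2 the difference was 5.21 (adjusted p 4.7e-05), with means of 197, 0.373, 118 and 8.31 CPM in the same order. The matKO blastocysts were thus the low group for both genes. For Klf5 the difference was 3.06 (adjusted p 1.7e-05), with means of 56.9 CPM in matKO ExE, 310 CPM in matKO blastocysts, 7.32 CPM in WT ExE and 310 CPM in WT blastocysts. Among imprinted genes Sfmbt2 and Cdkn1c differed by 2.36 (adjusted p 0.0042) and 3.25 (adjusted p 0.017), further up in matKO. The X to autosome level was higher in ExE than in blastocysts in WT too, over the 557 X genes of the joint fit. WT males had -0.02 ± 0.31 in ExE (SD, n = 4) and -1.15 ± 0.45 in blastocysts (SD, n = 3). WT females had -0.24 ± 0.2 in ExE (SD, n = 6), and the 1 WT female blastocyst was at -1.27. Over the same 557 genes matKO males had -0.55 ± 0.14 in ExE (SD, n = 3) and -3.03 ± 1.09 in blastocysts (SD, n = 4). For matKO females the values were -0.38 ± 0.12 in ExE (SD, n = 5) and -2.45 ± 0.21 in blastocysts (SD, n = 4). The highest matKO blastocyst was at -2.06 and the lowest WT blastocyst at -1.55. Values given above for matKO alone rest on fewer X genes. The stage difference of the X to autosome level in males was 1.36 larger in matKO than in WT, which did not pass (exact two-sided permutation p 0.199 over 1225 relabellings). With the mean over genes in place of the median it was 0.4 (exact p 0.389).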

How the data were processed

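Single-embryo libraries of polyadenylated RNA were deposited by the authors as tables of raw read counts per gene, 1 table per stage. The submitters' processing notes name Trim Galore, STAR, SAMtools, featureCounts and mm10, while versions, strand setting and multimapping rule are not stated there. Reads of overlapping, antisense and near-identical genes may therefore be shared. The 2 tables were joined by gene symbol (48321 genes), and 8 columns with no matching sample were not used. Genes passed filterByExpr at a minimum count of 10 (12660 genes), and counts were TMM-scaled and tested with edgeR 4.0.16 (estimateDisp, robust glmQLFit, glmQLFTest) in R 4.3.3, with sex as a term and Benjamini-Hochberg adjustment over all genes tested. DESeq2 1.42.0, limma 3.58.1 (voom), other scalings, filters, blastocyst sets and leaving out each library were alternatives. The fit was tested on simulated data for this comparison in 3 draws with 200 changed genes among 12318 to 12364. There it recovered 11.8% of 2-fold and 55.5% of 4-fold changes, and 3.38% of its calls were unchanged genes. In the data 7188 of 12660 genes were called. How the fit performs at such a share of changed genes was not tested.

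The members and gene lists were chosen with earlier results of these data known. Named genes were the anchors of the 28 lists, the 12 largest called rises and falls of at least 20 CPM without overlap, up to 3 further called genes per list and direction, up to 8 genes with the smallest p for the sex and genotype differences and the 5 of highest CPM per kilobase, some left out for brevity. Replicate numbers were used only as names of libraries. Exact permutation p-values are the smaller one-sided p doubled. Counting intervals and floors cover counting error only.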

Additional observations from a re-analysis of the deposited data

Results flagged for a closer look

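A library that stood far from the other libraries of its group was found in 36 of 300 groups examined. The rule's nominal rate is about 1 in 20, but where a gene is at 0 in nearly every library, 1 library with a few counts stands apart by construction, so the number is not read as an excess. The groups were the 8 libraries of a stage for each gene named in the report, on log2(CPM + 1), and for each gene list, and the libraries of 1 stage and sex for the X to autosome level.

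Among single genes, matKO ExE male 1 was lowest of its stage for Gata3 (2.01 CPM), Atf4 (220 CPM) and Tex19.1 (25 CPM). Library matKO ExE female 3 was highest of its stage for Pou5f1 (8.31 CPM) and Mybpc2 (0.173 CPM). Library matKO ExE female 5 was highest of its stage for Obox6 (3.21 CPM), Pramel6 (0.676 CPM) and Sp110 (13.3 CPM). Library matKO ExE male 2 was highest of its stage for Pik3r6 (0.0775 CPM). Library matKO ExE female 4 was highest of its stage for Spi1 (0.294 CPM). Library matKO ExE female 1 was lowest of its stage for Tead4 (22.7 CPM). Library matKO blastocyst female 7 was highest of its stage for Elf5 (0.796 CPM), Sox17 (0.569 CPM), Ddx4 (0.91 CPM) and Gata2 (0.683 CPM). Library matKO blastocyst male 4 was lowest of its stage for Eomes (18.9 CPM). Library matKO blastocyst female 4 was highest of its stage for Bmp4 (1.34 CPM). Library matKO blastocyst female 5 was highest of its stage for Ascl2 (0.726 CPM), Fgf5 (0.242 CPM) and Krt19 (3.39 CPM). Library matKO blastocyst male 7 was highest of its stage for Grb10 (5.04 CPM) and Tsix (1.28 CPM). Library matKO blastocyst male 5 was highest of its stage for Rhox6 (1.19 CPM) and Il6st (0.756 CPM). Library matKO blastocyst male 4 was highest of its stage for Spink1 (0.156 CPM). Library matKO blastocyst female 6 was highest of its stage for Irx3 (0.722 CPM). Library matKO blastocyst female 4 was lowest of its stage for Pfkfb4 (2.34 CPM). Library matKO blastocyst female 7 was lowest of its stage for Phgdh (311 CPM).

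Among gene lists, by their mean log2 CPM, matKO ExE male 3 was lowest of its stage for trophectoderm epithelium and cavity (4.13), matKO ExE male 1 was highest of its stage for visceral and parietal endoderm markers (7.68), matKO ExE female 2 was lowest of its stage for DNA methylation machinery (3.98), matKO ExE female 2 was highest of its stage for Rhox cluster (9.08), matKO ExE female 3 was highest of its stage for p53 targets (4.47), matKO ExE female 5 was highest of its stage for 2-cell stage transcripts (1.11) and matKO blastocyst female 5 was highest of its stage for trophectoderm epithelium and cavity (5.30) and epiblast and primed pluripotency markers (1.53).

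Of the genes named in the report, 28 had a stage difference that differed between genotypes by the interaction test of the joint fit over 14749 genes (edgeR, adjusted p under 0.05), with genotype and prefix confounded in ExE. Each value is the log2 stage difference in matKO minus that in WT, followed by its adjusted p, and for genes with no count in a group it is no measured size. Those further up in matKO were Krt8 (3.12, 0.00099), Krt18 (2.76, 0.00093), Plac1 (11.8, 0.00027), Dppa5a (2.88, 0.0011), Sox17 (4.09, 0.0032), Sfmbt2 (2.36, 0.0042), Cdkn1c (3.25, 0.017), AU022751 (4.97, 0.035), Mycn (3.6, 0.00039), Bhmt (2.87, 0.038), Trim43a (3.23, 0.048), Ets2 (5.21, 4.7e-05), Gata2 (6.94, 0.00018), Klf5 (3.06, 1.7e-05), Aqp8 (4.94, 0.0057), Ptges (3.55, 0.0037), Cited1 (1.42, 0.042), Il6st (4.79, 0.0018), Lifr (6.71, 0.0032), Pdk1 (5.1, 0.024), Nsdhl (5.04, 7.4e-05), Phgdh (1.43, 0.023) and Sp110 (6.27, 0.0073). Those further down in matKO were Atf4 (-1.4, 0.0015), Slc5a6 (-2.52, 0.0022), Tfcp2l1 (-1.67, 0.0048), Tigar (-1.1, 0.013) and Cth (-1.52, 0.025). AU022751 is Ezhip itself. It was near 0 at both stages in matKO and lower in WT ExE than in WT blastocysts, so its value is no rise in matKO.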

How the results depend on the processing

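With no count filter 6626 genes were higher and 5274 at least 4-fold higher. In males only 2062 genes were higher, 1654 lower and 1650 at least 4-fold higher. A replicate block could pair females 4 and 5 alone, and gave 1234 higher, 1046 lower, 1131 at least 4-fold higher and 830 at least 4-fold lower. Their deviations were uncorrelated (-0.035 and -0.009), but so few pairs cannot show whether the numbers carry litter or batch. The numbers were used only as names of libraries. For the sex difference DESeq2 called 20 genes, and leaving out 1 library gave 0 to 1. With all blastocysts and a prefix term 2694 genes differed by genotype, 1742 of them further up in matKO. The male X to autosome difference was 1.44 with blastocysts of both prefixes (exact p 0.0167) and 1.79 to 2.2 without 1 library (exact p 0.1 to 0.133, where fewer libraries raise the smallest possible p).

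Against the D405T blastocysts the fold change was -1.54 for Eomes, -1.46 for Krt8, -0.62 for Krt18 and -0.78 for Ezh2, and the cause was not tested. Otx2 was at -3.75 in the replicate block and at -1.15 without ExE females 1 and 3 and ExE male 3. The median of all genes shifted by -0.142 with the D405T blastocysts and by -0.134 without blastocyst female 4. List counts moved by over 1.5 times without 1 library in these further cases: canonical imprinted genes lower, 5 in place of 3 without blastocyst male 5; Hox and Pax regulators lower, 1 in place of 2 without blastocyst female 4, 5 or 6 or male 4 or 7; histones higher, 2 in place of 4 without blastocyst female 4, 5 or 6; X dosage factors lower, 1 in place of 0 without blastocyst female 5 or 6, blastocyst male 7 or ExE female 1. The settings that leave out libraries standing apart were chosen after seeing the data. The lowest library held 2736211 counts, which limits calls on genes of few counts.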
